A study of Arabidopsis thaliana with 6 samples.

Results

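The genes described here encode class III peroxidases, the secreted haem peroxidases of plants, and their transcript levels were compared between Arabidopsis thaliana seedlings that overexpress ASL9 and wild-type seedlings. A list of 60 class III peroxidase loci was matched by gene symbol or locus tag to probe sets that the platform annotation pairs with exactly 1 gene. Such a probe set existed for 42 of the 60 loci, out of 13286 genes read in this way on the array. No locus was read by more than 1 of them (0 loci), so every gene is represented by 1 probe set. The loci were listed by family, and the list was made with earlier results of these data known. The remaining 18 loci, among them PRXCA, PRXCB, RCI3, PER4, PER64, RHS18 and RHS19, lacked a probe set of their own in that annotation and were not analysed here.

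Each of 6 samples was hybridised to its own Affymetrix ATH1 array, and the 2 groups held 3 arrays each. The wild-type group was the accession Col-0 (stock N1092). The other group, ASL9-ox, was a transgenic line overexpressing ASL9, a transcription factor gene of the plant-specific LBD family. The sources used here give neither its promoter nor its parental accession nor the number of independent lines. All seedlings were 2 weeks old and had grown upright on agar with Murashige and Skoog salts, and the tissue label of both groups reads aerial parts. The labels do not say whether the replicates were grown separately. The p-values therefore reflect the spread between these arrays alone, and that spread may be technical.

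Class III peroxidases pass through the secretory pathway to the cell wall and the vacuole. There they use hydrogen peroxide to oxidise phenolic compounds, which couples monolignols into lignin and cross-links wall proteins such as extensins and wall phenolics. The same enzymes can also generate reactive oxygen species in the wall, so the family has been linked both to wall stiffening and to wall loosening. It is encoded by many genes, often in tandem arrays, and a large share of them is best known from roots.

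No probe set was paired with ASL9 alone (0 found), so the labels could not be checked through the overexpressed gene and every direction rests on them. Log2 values correlated at 0.9718 to 0.9913 between arrays of 1 group and at 0.8907 to 0.9299 between groups. The mean signal without the lowest and highest 2% was 99.96 on every array, the mark of a common scaling. Signals below 16 made up 36.8% to 37.9% of each array, and no detection calls came with the values. Below, a gene that "rose" or "fell" was higher or lower in ASL9-ox with a Benjamini-Hochberg adjusted p under 0.05 in limma, and fold changes are differences of log2(signal + 16). The added 16 damps the fold of genes with dim signals. Signals of different probe sets are not comparable as transcript levels.

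Most peroxidase genes that differed were lower in ASL9-ox, several of them by a large factor. Of the 42 genes, 16 fell, 4 rose, 9 did not pass and 13 were too dim to be tested. Over all 17059 probe sets tested, 17.0% were lower and 24.6% higher. With arrays centred on the hybridization controls those shares were 18.2% and 13.8%, and 17 members fell and 4 rose. The shares of members that follow are over all 42 genes, of which 29 were tested. The shares of all probe sets cover tested ones alone, so the 2 are not on the same footing. Falls reached 2-fold or more in 14 of the 42 genes (33.3%), and in 4.53% of all probe sets tested. Rises did so in 2 genes (4.76%), against 2.61%, which brings the genes changed at least 2-fold to 16, against 7.14% of all probe sets tested. Falls of at least 4-fold numbered 11, and 5 genes fell at least 8-fold. No share of all probe sets was computed at these cuts. AT5G64100 lay at the 8-fold cut, with a log2 fold change of -3.004 that ran from -3.065 to -2.901 with single arrays left out.

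The same contrast can be read without the filter on dim probe sets, so that all 42 genes are tested. Then 20 genes fell (47.6%, background 12.5%), 4 rose (9.52%, background 16.7%) and 18 did not pass. The median log2 fold change of the 42 genes was -0.34, and that of all probe sets was 0.04. The 3 values of wild type and the 3 of ASL9-ox were separate for 29 of the 42 genes (69.0%, against 44.0% of all probe sets). Because the RNA came from whole tissue, fewer cells of a kind and less transcript per cell cannot be told apart.

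**Figure D1:**
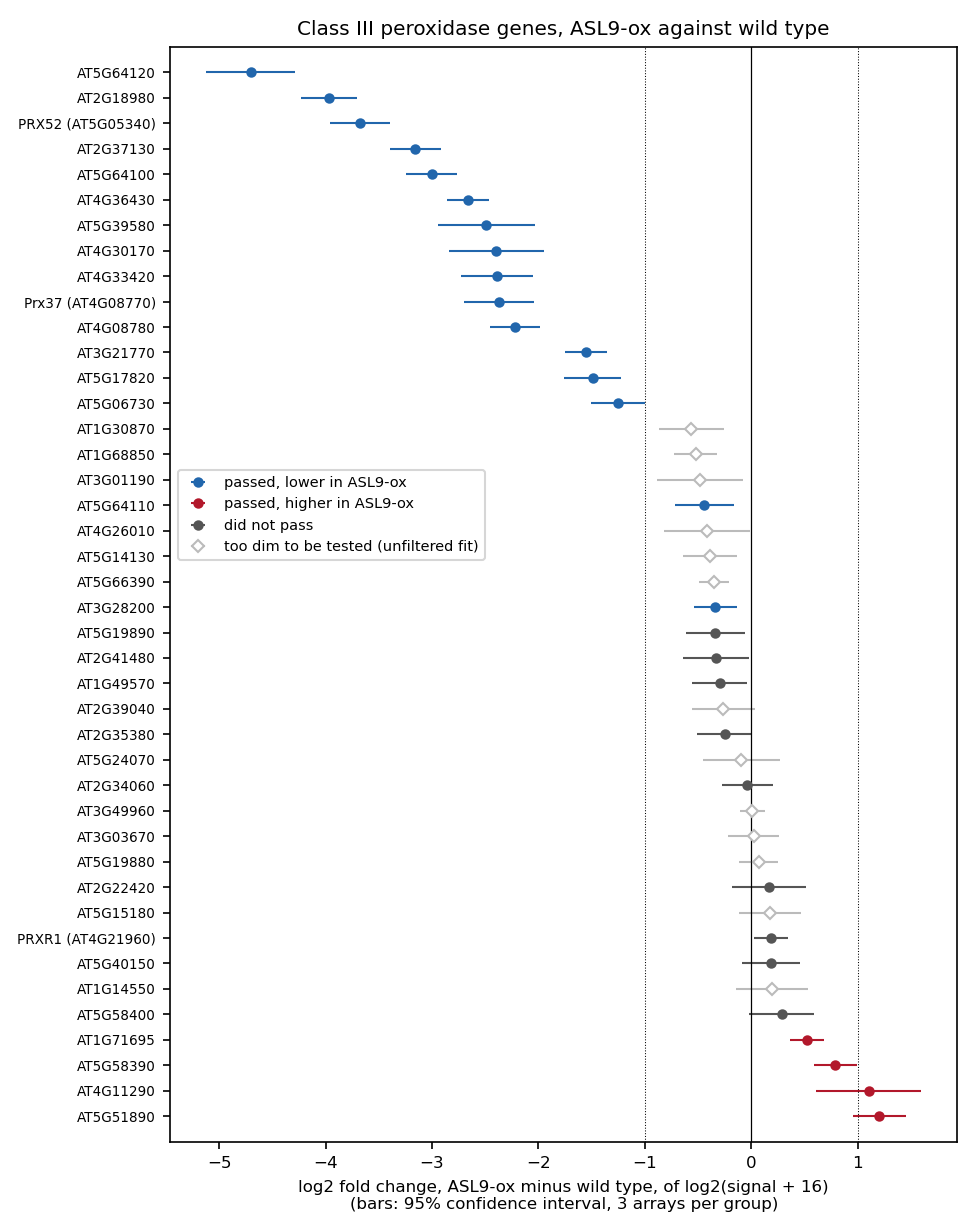
Log2 fold change (ASL9-ox minus wild type, of log2(signal + 16)) with its 95% confidence interval for each of the 42 peroxidase genes, ordered by size, with 3 arrays per group. The 14 genes at the top lie below -1, whereas 2 genes at the bottom lie above 1, and open symbols mark the 13 genes too dim to be tested, taken from the fit without a filter.

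Among the members with a known part in wall building, PRX71 (AT5G64120) changed most. The enzyme is known to stiffen cell walls and to restrain cell growth. Its signal was 1030.4, 1485 and 1156 on the wild-type arrays and 40.5, 36.3 and 19.2 on the ASL9-ox arrays. The groups were far apart, with means of 1224 ± 235 and 32 ± 11.3 (SD, n = 3 per group), a ratio of 38.2 in favour of wild type. On the log2 scale the change was -4.70 ± 0.19 (SE; limma adjusted p = 2.25e-07).

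PRX52 (AT5G05340), which takes part in lignin formation in the stem, read 201, 242 and 292 in wild type. In ASL9-ox it read 4.14, 3.83 and 4.55, so all 3 arrays were close to each other and below 16. The log2 fold change was -3.68 ± 0.12 (SE; limma adjusted p = 8.58e-08). Prx37 (AT4G08770), whose overexpression is known to dwarf plants, read 198, 220.3 and 199 in wild type against 36.3, 17.7 and 28.8 in ASL9-ox. The lowest wild-type array stood well above the highest ASL9-ox array, and the log2 fold change was -2.37 ± 0.15 (SE; limma adjusted p = 3.26e-06).

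PRX25 and PRX72 have also been linked to lignin. The genes given a function here are examples and not a full list of the members with such links. All of these examples had a negative log2 fold change, and the members that rose are given no function here. The examples therefore do not show the direction of the wall-linked members as a set. PRX25 (AT2G41480) read 16, 20.7 and 18.5 in wild type and 16.8, 9.35 and 8.53 in ASL9-ox. The groups overlapped, and it did not pass (log2 fold change -0.33, 95% confidence interval -0.64 to -0.02, limma adjusted p = 0.0822). Without ASL9-ox replicate 1, the array on which it overlapped wild type, the adjusted p was 0.0216. PRX72 (AT5G66390) was dim on every array, at 4.72 to 5.73 in wild type and 0.485 to 0.927 in ASL9-ox, and was left out of the test by the filter. The groups did not overlap, and in the fit without a filter it fell (limma adjusted p = 0.00419), with a fold that the added 16 holds small.

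The other large falls are given here by locus tag and without a function. The reference table holds only a locus tag for them, as it does for PRX71, PRX25 and PRX72. AT2G18980 read 408, 457 and 364 in wild type and 9.29, 9.28 and 15.3 in ASL9-ox, a log2 fold change of -3.96 ± 0.12 (SE; limma adjusted p = 3.98e-08). AT2G37130 read 954, 1185 and 919 in wild type and 100.5, 107 and 91.2 in ASL9-ox, a ratio of the means of 10.2. The former dropped to signals below 16, whereas the latter kept a clear signal in ASL9-ox, with a log2 fold change of -3.16 ± 0.10 (SE; limma adjusted p = 8.13e-08). AT4G36430 read 161, 183 and 158 in wild type and 12.6, 13.9 and 12.5 in ASL9-ox, where its 3 values lay close together. Its log2 fold change was -2.66 ± 0.09 (SE; limma adjusted p = 8.13e-08).

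AT5G39580 and AT4G30170 fell by similar amounts but varied more between replicates. AT5G39580 read 97.6, 133 and 65.4 in wild type and 1.04, 6.36 and 4.39 in ASL9-ox. AT4G30170 read 105, 110.3 and 64.3 in wild type and 0.851, 9.29 and 3.72 in ASL9-ox. In both, wild-type replicate 3 was the lowest array of its group and still stood above every ASL9-ox array. Their log2 fold changes were -2.49 ± 0.20 and -2.40 ± 0.20 (SE; limma adjusted p = 1.71e-05 and 1.84e-05).

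AT4G33420 and AT3G21770 kept a signal above 16 on every ASL9-ox array. AT4G33420 read 184, 257 and 204 in wild type and 35.7, 28.1 and 20.7 in ASL9-ox, a ratio of the means of 7.63. AT3G21770 read 171, 192 and 169 in wild type and 52.6, 52.1 and 45.3 in ASL9-ox, a ratio of 3.55. The replicates of AT3G21770 lay close together in both groups, and its log2 fold change of -1.55 ± 0.09 (SE; limma adjusted p = 1.88e-06) was smaller than that of AT4G33420, -2.39 ± 0.15 (SE; limma adjusted p = 3.33e-06). The difference between these 2 changes was not tested.

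The smallest falls of at least 2-fold came from genes that were dim already in wild type. AT5G17820 read 28.7, 39.7 and 35.7 in wild type and 2.93, 1.55 and 1.38 in ASL9-ox. AT5G06730 read 26.1, 24.4 and 21.5 in wild type and 0.346, 1.05 and 0.897 in ASL9-ox. Both groups of arrays were separate for both genes, with log2 fold changes of -1.49 ± 0.12 and -1.25 ± 0.11 (SE; limma adjusted p = 1.57e-05 and 2.76e-05). With a pseudocount of 64 these changes shrank to -0.58 and -0.44, since the number added sets the fold at such signals. Of the 14 genes that fell at least 2-fold, 9 had an ASL9-ox mean below 16, and their fold depends on that number.

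**Figure D2:**
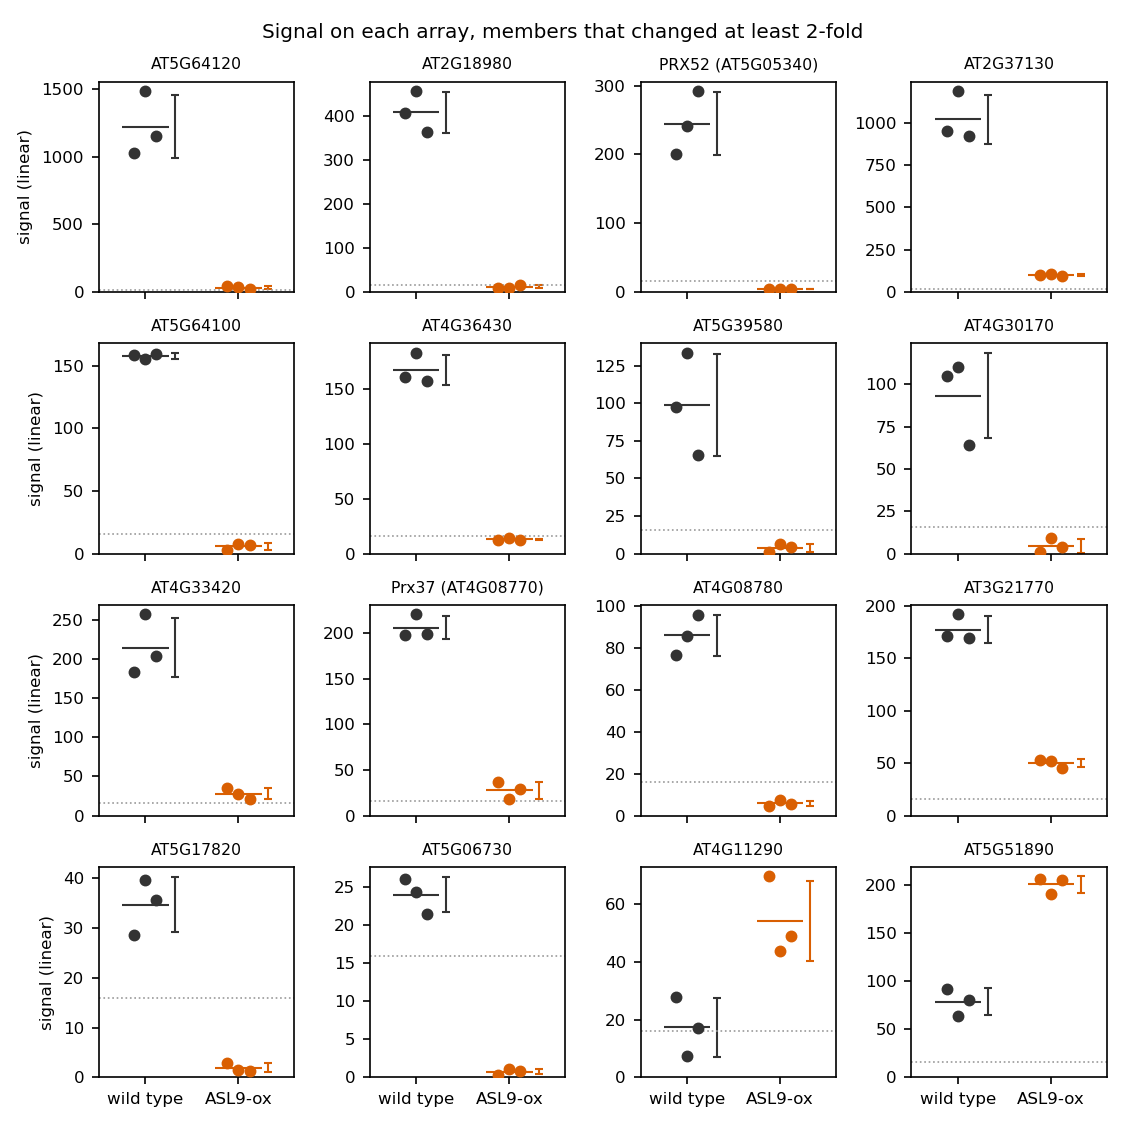
Linear signal of the 16 peroxidase genes that changed at least 2-fold, with 1 point per array, a horizontal line at the group mean and a bar of 1 SD (n = 3 per group). The dotted line marks a signal of 16, the vertical scales differ between panels, and no ASL9-ox array reaches the lowest wild-type array in the 14 genes that fell.

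Rises were fewer and smaller. AT5G51890 read 91.6, 63.9 and 80.7 in wild type and 205, 190.4 and 205 in ASL9-ox, a ratio of the means of 2.54 and a log2 fold change of 1.20 ± 0.11 (SE; limma adjusted p = 3.61e-05). AT4G11290 read 27.7, 7.39 and 16.9 in wild type and 69.7, 43.8 and 48.9 in ASL9-ox. Its wild-type values were spread widely, with replicate 2 the lowest, and the log2 fold change was 1.10 ± 0.22 (SE; limma adjusted p = 0.00347). It rose without wild-type replicate 2 and without ASL9-ox replicate 1 as well, but by 0.87 and 0.95 on the log2 scale, below 2-fold.

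AT5G58390 and AT1G71695 rose by less than 2-fold. AT5G58390 read 72.7, 81.2 and 66.5 in wild type and 149, 132 and 134 in ASL9-ox, a log2 fold change of 0.79 ± 0.09 (SE; limma adjusted p = 0.000139). AT1G71695 read 363, 347 and 361 in wild type and 529, 489 and 542 in ASL9-ox, a log2 fold change of 0.52 ± 0.07 (SE; limma adjusted p = 0.000341). In neither gene did the groups overlap, and the difference exceeded the spread between replicates.

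**Figure D3:**
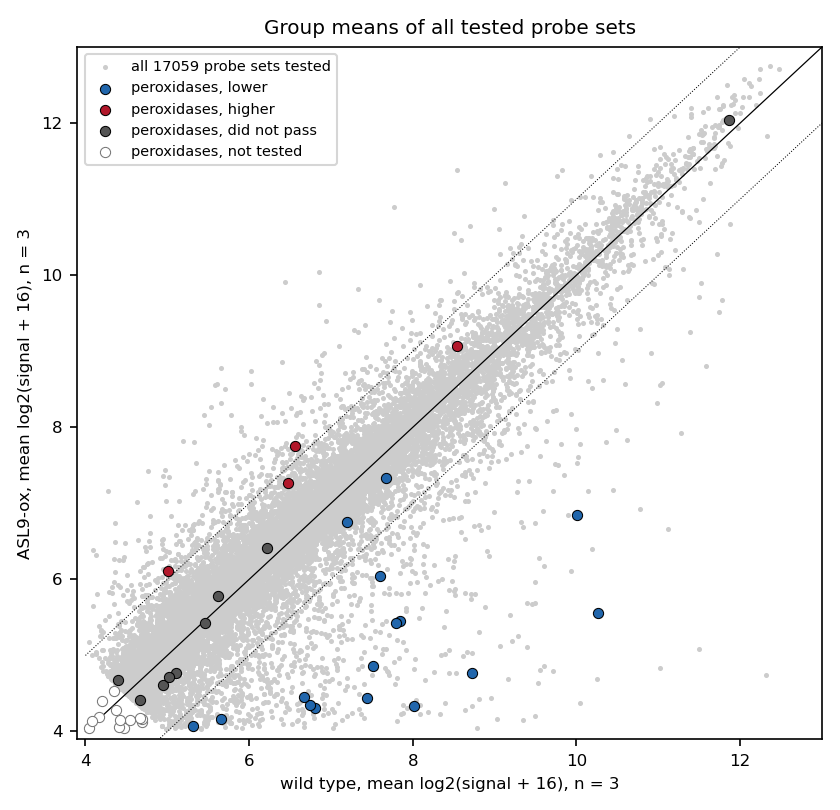
Mean log2(signal + 16) in wild type (horizontal) against ASL9-ox (vertical) for all 17059 probe sets tested (grey) and the 42 peroxidase genes (coloured by call, open where not tested), with n = 3 arrays per group. Solid and dotted lines mark equal signal and 2-fold differences, and 14 peroxidase genes lie below the lower dotted line and 2 above the upper one.

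PRXR1 (AT4G21960) had a high signal in both groups and changed little. It read 3903, 3815 and 3432 in wild type and 4145, 4034 and 4472 in ASL9-ox, so the groups did not overlap. The log2 fold change of 0.18 (95% confidence interval 0.02 to 0.34) did not pass (limma adjusted p = 0.065). It passed as higher with the dimmest 50% left out, with array weights and without wild-type replicate 1 (adjusted p = 0.0498, 0.0421 and 0.046). Its sign depended on the scaling, since quantile normalization gave -0.09. The highest signal of any probe set was 5493 to 5796 on the wild-type arrays and 6617 to 7196 on the ASL9-ox arrays, and the part of this in the value of PRXR1 was not tested.

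The small falls were those of AT5G64110 and AT3G28200. AT3G28200 read 178, 184 and 200.1 in wild type and 158, 146 and 130.5 in ASL9-ox, a log2 fold change of -0.34 ± 0.09 (SE; limma adjusted p = 0.0136). The arrays were separate, but the call was lost without wild-type replicate 3 (adjusted p = 0.0589).

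AT2G34060, AT2G22420 and AT5G40150 overlapped between the groups, with log2 fold changes of -0.04, 0.16 and 0.18. Their 95% confidence intervals were -0.28 to 0.20, -0.19 to 0.51 and -0.09 to 0.46, so changes of 2-fold lay outside them in either direction. AT5G19890, AT1G49570, AT2G35380 and AT5G58400 also did not pass, with log2 fold changes of -0.34, -0.30, -0.25 and 0.28. Group means of these 4 lay between 5.15 and 16.5. AT5G19890 and AT1G49570 came closest to the threshold (limma adjusted p = 0.053 and 0.0622). Both passed with arrays centred on their medians (adjusted p = 0.0346 and 0.0446).

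The 13 genes too dim to be tested read between 0.306 and 14.4 on all arrays. Without detection calls such signals cannot be set against background. In the fit without a filter 4 of them fell, namely AT1G30870 (-0.56), AT1G68850 (-0.52), AT5G14130 (-0.39) and PRX72 (-0.35), and 9 did not pass. AT4G26010 and AT3G01190 had 1 wild-type array apart from the others. AT4G26010 read 11.4, 0.486 and 7.96 in wild type and 0.306 to 0.831 in ASL9-ox, and AT3G01190 read 13.2, 3.13 and 13.2 against 1.19 to 4.11. The low array was wild-type replicate 2 in both. The other 7, with log2 fold changes from -0.26 to 0.19, were AT2G39040, AT5G24070, AT3G49960, AT3G03670, AT5G19880, AT5G15180 and AT1G14550.

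Tandem copies allowed a comparison within a locus. The annotation used for names places AT5G64100, AT5G64110 and PRX71 (AT5G64120) next to each other with no other protein-coding gene between them. AT5G64100 read 159, 155 and 159 in wild type and 2.79, 7.59 and 6.94 in ASL9-ox, a log2 fold change of -3.004 ± 0.105 (SE; limma adjusted p = 1.05e-07). The middle gene, AT5G64110, read 113, 139.7 and 141 in wild type and 90, 109.5 and 78.5 in ASL9-ox. It thus stayed well above 16 on every array, with a log2 fold change of -0.44 ± 0.12 (SE; limma adjusted p = 0.0174).

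The call for AT5G64110 was lost without wild-type replicate 2, wild-type replicate 3, or either of the ASL9-ox replicates 1 and 3 (adjusted p = 0.0506 to 0.0667). The change of AT5G64110 was smaller than that of AT5G64100 by 2.56 ± 0.17 and than that of PRX71 by 4.26 ± 0.19 on the log2 scale (SE). In each case the log ratio of the 2 genes did not overlap between the groups. An exact permutation test over samples (two-sided) gave p = 0.1 for both, which is the smallest p that 3 against 3 arrays allow (adjusted p = 0.12 over 6 pairs).

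Prx37 and its neighbour AT4G08780 fell by similar amounts. AT4G08780 read 76.6, 85.9 and 96 in wild type and 4.8, 7.26 and 5.48 in ASL9-ox, a log2 fold change of -2.22 ± 0.10 (SE; limma adjusted p = 6.58e-07). The changes of the 2 genes differed by 0.15 ± 0.25 (SE; exact permutation p = 0.7), a difference that turned to -0.77 with a pseudocount of 1. AT5G58390 rose, and its neighbour AT5G58400 was dim at 2.3 to 7.53 in wild type and 8.62 to 11.4 in ASL9-ox. AT5G19890 and its neighbour AT5G19880, which read at most 3.67, both lay near or below 16. Differences of -0.50 ± 0.19 and -0.41 ± 0.15 (SE; exact permutation p = 0.1 each) for these last pairs rest on such signals. Whether related transcripts bind to each other's probe sets was not tested.

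**Figure D4:**
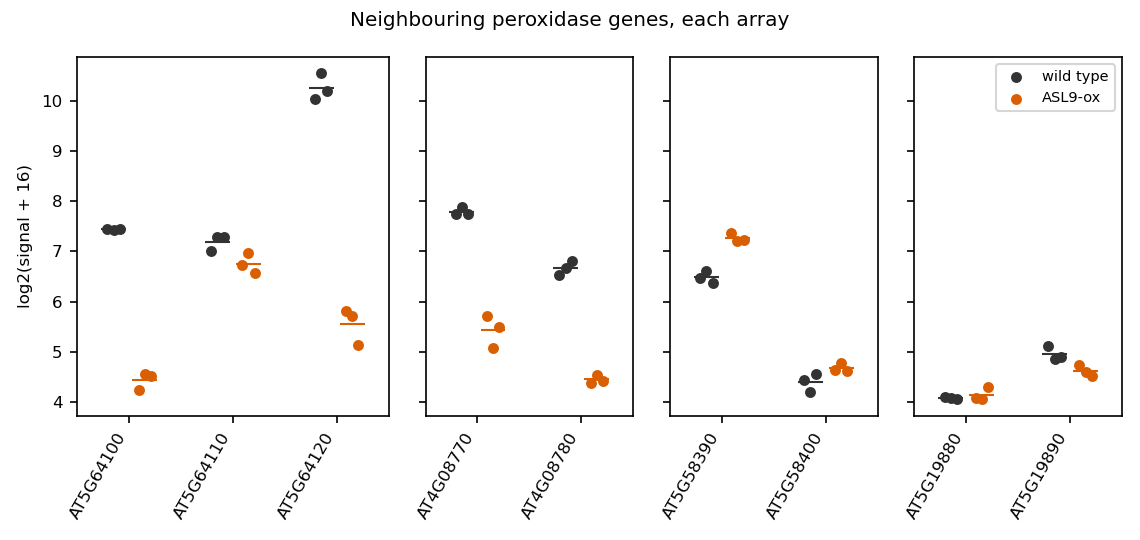
Log2(signal + 16) on each array for peroxidase genes that lie next to each other, with wild type in black, ASL9-ox in orange and a line at each group mean (n = 3 arrays per group). In the group on the left the outer genes AT5G64100 and AT5G64120 are far lower in ASL9-ox, while the middle gene AT5G64110 has a log2 fold change of -0.44.

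By chromosome, the 14 genes with falls of at least 2-fold were spread over 4 of 5 chromosomes. Chromosome 5 held 6 of them among 17 measured members, chromosome 4 held 5 of 8, chromosome 2 held 2 of 7 and chromosome 3 held 1 of 5. On chromosome 1 there were 0 of 5. The members counted include genes too dim to be tested, which could not be called. AT1G30870, AT1G68850 and AT1G14550 on chromosome 1 and AT3G01190, AT3G49960 and AT3G03670 on chromosome 3 are among them. Shares of all probe sets by chromosome were not computed.

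Genes that work with peroxidases were measured thinly, because few of them had a probe set of their own. NADPH oxidases supply superoxide, from which hydrogen peroxide forms. Of 10 such genes 3 had a probe set and 1 was tested, AT1G19230, which fell by 0.53 on the log2 scale (limma adjusted p = 0.0271) with a wild-type mean of 18.6. That call was lost without wild-type replicate 1, wild-type replicate 2, or either of the ASL9-ox replicates 2 and 3 (adjusted p = 0.0531 to 0.0891). None of 7 superoxide dismutase genes was measured (0 probe sets), and none of 6 elicitor response genes (0 probe sets).

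Among catalases and intracellular ascorbate peroxidases, which remove hydrogen peroxide, 2 of 11 genes were measured. TAPX, the thylakoid enzyme, rose from 257 ± 26.5 to 455 ± 22 (SD, n = 3 per group), which is 0.79 on the log2 scale (limma adjusted p = 0.000106). SAPX, the stromal enzyme, fell from 379 ± 42.7 to 277 ± 46.6, a log2 fold change of -0.44 (limma adjusted p = 0.0193). The call for SAPX was lost when wild-type replicate 1, wild-type replicate 3, or either of the ASL9-ox replicates 2 and 3, was left out (adjusted p = 0.0573 to 0.0736).

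Both measured genes of monolignol synthesis, 2 of 19 listed, fell, beside 17.0% of all probe sets tested. HCT, which acts early in the pathway, had a log2 fold change of -0.48 ± 0.09, and CCR2, a cinnamoyl-CoA reductase gene with a wild-type mean of 22.6, one of -0.90 ± 0.14 (SE; limma adjusted p = 0.00289 and 0.00104). The only laccase gene with a probe set, LAC16, of 17 listed, read at most 2.02 and was not tested. Laccases oxidise monolignols with oxygen in place of hydrogen peroxide.

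Extensins are wall proteins that peroxidases cross-link. Of 15 genes 8 had a probe set, 5 were tested and 3 fell. AT1G23720 read 24.5, 42.1 and 36.4 in wild type and 16.2, 8.15 and 12.8 in ASL9-ox (log2 fold change -0.82 ± 0.16, SE; limma adjusted p = 0.00299). HRGP1 had a log2 fold change of -0.49 and AT5G06630 one of -0.37. The other 2 tested genes, AT3G54580 (0.24) and AT4G08410 (-0.17), did not pass. The 3 genes that fell and AT4G08410 were read by probe sets with the suffix _x_at, whose probes may also bind related transcripts. Such binding was not tested. The call for AT5G06630 was lost under the replicate block (adjusted p = 0.0514) and without wild-type replicate 2, wild-type replicate 3, or either of the ASL9-ox replicates 1 and 2 (adjusted p = 0.0605 to 0.0871). Of a list of 9 genes that held UPB1 and Casparian strip genes, 2 were measured. UPB1, a transcription factor gene known to repress peroxidase genes in roots, read 1.95 to 7.86 in wild type and 6.97 to 11 in ASL9-ox and did not pass (log2 fold change 0.23, limma adjusted p = 0.234). GSO1 did not pass either (0.06). Over all these lists together 12 genes were tested, of which 1 rose and 7 fell, beside 24.6% higher and 17.0% lower of all probe sets. Among the 7 were the 3 extensin genes read by probe sets with the suffix _x_at. The 7 became 4 at a threshold of 0.01 or without ASL9-ox replicate 2, and 2 with the dimmest 50% left out.

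Few markers of tissue had a probe set of their own. The only root marker of 15 with a probe set, the beta-glucosidase gene PYK10, read 2847 to 3168 in wild type and 408 to 453 in ASL9-ox (log2 fold change -2.78 ± 0.07, SE; limma adjusted p = 2.14e-08). The tissue label of both groups reads aerial parts, and whether any root tissue was present was not tested. The root hair markers EXPA7 and EXPA18, 2 of 7 listed, had a summed signal of 4.47 to 17.7 in wild type and 5.75 to 17.5 in ASL9-ox, and neither reached 16 on any array. All 4 measured leaf photosynthesis markers of 10 rose, by 0.18 (RCA) to 1.04 (LHCB4.3) on the log2 scale, beside 24.6% of all probe sets tested. Their summed signal was 10157 to 11100.3 in wild type and 14328 to 15073 in ASL9-ox. The call for RCA (limma adjusted p = 0.0402) was lost under 11 of 17 alternatives, and its log2 fold change was 0.09 with arrays centred on the hybridization controls and -0.09 with quantile normalization. It was lost without wild-type replicate 2, wild-type replicate 3 or any 1 of the 3 ASL9-ox arrays (adjusted p = 0.0589 to 0.148). The part of tissue composition in the falls of the peroxidase genes was not tested.

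Wild-type replicate 2 carried signal of seed maturation genes that was low on the other 5 arrays. PAP85 read 806 there and 0.969 to 3.76 elsewhere, OLEO3 read 504 against 4.54 to 9.88, and the summed signal of the 3 measured genes of 15 was 1619 there and 8.65 to 14.1 elsewhere. That array had the highest signal of its group in 10 of the 14 peroxidase genes that fell at least 2-fold. Of the 16 members with both group means below 16, it had the lowest wild-type signal in 9. No such shares of all probe sets were computed, and a link to the seed maturation signal was not tested. Without wild-type replicate 2 the 14 genes still fell at least 2-fold, with log2 fold changes of -4.56 for AT5G64120 (PRX71) and -3.89 for AT2G18980.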

How the data were processed

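Total RNA of 6 samples was hybridised to 6 arrays, and the deposited table held 22810 probe sets. The authors made its intensity values, linear signals per probe set, with MAS5 and GCOS, per the submitters' processing notes; the sources used here give no versions and no scaling target. Their scaling to a common mean hides any shift shared by all transcripts. In the platform annotation 13513 probe sets had 1 gene and 503 several, and symbols came from RefSeq (TAIR10.1), whose coordinates served only to tell which genes are neighbours.

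Signals were transformed to log2(signal + 16). Left out were 64 control probe sets and, by mean log2 value, the dimmest 25% of the rest. The remaining 17059 were fitted with limma 3.58.1 in R 4.3.3 (lmFit, eBayes with intensity trend, two-sided; prior degrees of freedom 5.11), and p-values were adjusted over all of them. The procedure was run on simulated data with independent normal noise, in which far fewer probe sets were changed than passed here. That run does not show how the procedure behaves on these data. The 3 arrays per group limit the precision. Deviations of arrays with the same replicate number had correlations of -0.1158, -0.0606 and 0.0198, and the samples were treated as unpaired. Neighbouring genes were compared by exact permutation (scipy 1.17.1).

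All members with a probe set are named; the signal on every array is given for those past the threshold with at least a 2-fold change, and for others where a comparison uses it. The members, gene lists and alternatives were chosen with earlier results of these data known. Protein and promoter sequences were not used here. Figures were drawn with matplotlib 3.10.9.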

Additional observations from a re-analysis of the deposited data

How the results depend on the processing

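The counts of 4 members higher and 16 lower stayed within 1.5 times under all alternatives run, which covered scaling, pseudocount, filter, variance model, array weights, replicate block, threshold and single arrays left out. The 16 changes of at least 2-fold became 10 with the dimmest 50% left out, where the other 6 genes were not tested, and 12 with a pseudocount of 64, where AT4G11290, AT5G06730, AT5G17820 and AT5G51890 fell short of 2-fold. The median of the tested members, -0.44, was -0.74 with a pseudocount of 1 and -1.96 with the dimmest 50% left out, where 16 members were tested. The 7 partner genes that fell became 2 with the dimmest 50% left out and 4 at a threshold of 0.01. Leaving out single arrays gave medians of -0.908 to -0.346 (the lowest without ASL9-ox replicate 2), 15 to 16 changes of at least 2-fold, 14 to 17 members lower and 4 to 6 partner genes lower (4 without ASL9-ox replicate 2). The cause of these shifts was not tested. Under the replicate block 16 members and 6 partner genes were lower and 4 members and 1 partner gene higher.

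Of 478 values of the 29 tested members under 17 alternatives, 459 kept their direction and their side of the threshold, 5 lost a call, 11 gained one and 3 turned sign. Those 3 were not called: AT2G34060, which ran from -0.103 to 0.013 over the single arrays left out (0.006 and 0.013 when wildtype replicate 3 or ASL9-ox replicate 3 was absent), and PRXR1 (AT4G21960), at -0.094 with quantile normalization. The difference between AT4G08770 and AT4G08780 turned to -0.772 with a pseudocount of 1 and ran from -0.075 (without ASL9-ox replicate 2) to 0.323 over the single arrays left out, an alternative chosen after seeing the data. Centring on the hybridization controls moved the median of all probe sets by -0.093 and gave 4 members higher and 17 lower. Signals below 16 limit what can be said of 16 members whose means lay below it in both groups.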
